A study of Mus musculus with 8 samples.

Results

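The cytosolic heat shock response genes described here are 10 listed genes, Hsf1, Hspa8, Hspa1a, Hspa1b, Hsp90aa1, Hsp90ab1, Dnajb1, Hspb1, Hsph1 and Bag3, of the 55304 gene symbols of the annotation. H3K27ac, the acetylation of histone H3 that marks active promoters and enhancers, was measured by ChIP-seq in mouse primary hepatocytes (MPH), which are liver cells taken from adult male wild-type C57Bl6 mice and kept in culture. MPH received 1 µM thapsigargin, which blocks the calcium pump of the endoplasmic reticulum (ER) and so triggers ER stress (ERS), or 0.04% DMSO as vehicle, in both cases for 4 h. There were 3 H3K27ac libraries and 1 input library (DNA without immunoprecipitation) for each treatment. The lists analyzed here give each of 32196 H3K27ac regions as UP (5508), DOWN (3376) or unchanged (23312) in thapsigargin-treated relative to DMSO-treated MPH. A region is UP or DOWN where the csaw analysis of the authors reached a false discovery rate of 0.05 over the 3 libraries of each treatment. Each region has a position and a class, and neither a height, a fold change nor a value per library, so depth is unknown, no error can be given and no test was run. An unchanged region is one that did not pass that threshold, which does not show equal acetylation. Whole cultures were assayed, so a change in all cells and a change in some of them cannot be told apart. All 6 hepatocyte markers examined (Alb, Ttr, Apoa1, Apob, Serpina1c and Hnf4a) had a transcription start site (TSS) in a region, of which Apoa1 and Hnf4a were DOWN, against 1 of 6 markers of other liver cells, the endothelial gene Stab2.

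In the heat shock response, unfolded protein in the cytosol releases the transcription factor HSF1 from its chaperones, and HSF1 trimers bind heat shock elements, arrays of inverted GAA units, in the promoters of chaperone genes. HSP70 and HSP90 proteins then hold and refold clients, helped by J-domain proteins, which hand over clients, and by nucleotide exchange factors, which release them. The unfolded protein response of the ER is a separate pathway, whose standard target is the ER chaperone Hspa5 (BiP), used here as a reference gene only.

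The promoter sequences of 4 members and of Hspa5 are shown because they place the motifs of both pathways beside the regions described next. They run 5′ to 3′ on the strand of the gene, from 250 bases before a RefSeq TSS to 50 bases from it onwards, on GRCm38.p6, the assembly of mm10. Capitals mark heat shock elements, GAANNTTCNNGAA or its reverse complement TTCNNGAANNTTC, with at most 1 mismatch in the 9 fixed bases, and in Hspa5 they mark the ER stress response element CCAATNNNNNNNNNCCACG. Both strands were searched, and overlapping matches run together.
Hspa1a (chr17:34972107-34972406, minus strand): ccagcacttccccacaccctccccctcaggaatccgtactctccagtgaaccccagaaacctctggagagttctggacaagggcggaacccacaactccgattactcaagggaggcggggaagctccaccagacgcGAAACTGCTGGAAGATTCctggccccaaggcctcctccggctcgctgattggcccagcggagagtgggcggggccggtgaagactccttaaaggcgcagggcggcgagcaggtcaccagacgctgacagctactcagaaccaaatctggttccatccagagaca
Hspa1b (chr17:34959189-34959488, minus strand): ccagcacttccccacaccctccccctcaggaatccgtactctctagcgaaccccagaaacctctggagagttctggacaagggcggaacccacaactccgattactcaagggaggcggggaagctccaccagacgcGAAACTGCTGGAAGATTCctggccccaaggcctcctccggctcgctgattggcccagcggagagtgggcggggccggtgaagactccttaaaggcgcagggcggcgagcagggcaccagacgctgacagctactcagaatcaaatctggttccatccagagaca
Hsph1 (chr5:149636287-149636586, minus strand): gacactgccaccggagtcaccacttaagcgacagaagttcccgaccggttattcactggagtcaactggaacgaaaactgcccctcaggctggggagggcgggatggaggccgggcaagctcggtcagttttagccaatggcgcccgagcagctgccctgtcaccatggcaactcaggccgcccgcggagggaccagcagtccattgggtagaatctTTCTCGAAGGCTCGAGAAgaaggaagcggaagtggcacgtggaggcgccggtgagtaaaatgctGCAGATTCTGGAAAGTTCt
Hspb1 (chr5:135887669-135887968, plus strand): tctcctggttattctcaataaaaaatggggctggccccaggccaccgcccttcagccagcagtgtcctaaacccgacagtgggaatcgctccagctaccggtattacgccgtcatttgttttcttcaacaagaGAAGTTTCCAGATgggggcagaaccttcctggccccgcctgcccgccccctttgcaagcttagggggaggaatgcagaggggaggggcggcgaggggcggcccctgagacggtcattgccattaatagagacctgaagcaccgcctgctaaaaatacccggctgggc
Hspa5 (chr2:34771840-34772139, plus strand): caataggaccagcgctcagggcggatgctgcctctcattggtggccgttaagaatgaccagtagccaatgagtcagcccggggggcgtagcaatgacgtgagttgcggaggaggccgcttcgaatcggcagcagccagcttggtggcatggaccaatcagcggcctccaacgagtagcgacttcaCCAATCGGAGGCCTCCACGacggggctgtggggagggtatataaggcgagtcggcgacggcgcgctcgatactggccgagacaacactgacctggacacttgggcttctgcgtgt

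The windows of Hspa1a and Hspa1b had the same base at 296 of 300 positions. In both, the matches with 1 mismatch began 114 and 109 bases before the TSS. The Hspb1 match began 117 bases before the TSS. Hsph1 held the only exact heat shock element among the 6 members in the promoter table, TTCTGGAAAGTTC, which began 36 bases after the TSS, and it held 4 overlapping or neighboring matches in all when 1 mismatch was allowed. No match was found in the windows of Bag3 or Dnajb1. An exact element was present in 0.662% of the 27025 genes with a promoter sequence and an element with at most 1 mismatch in 8.15%, against 1 and 4 of the 6 members. The element of Hspa5 began 65 bases before the TSS, and 0.137% of genes held such an element. No promoter sequence was available here for Hsf1, Hspa8, Hsp90aa1 and Hsp90ab1, so these members were not searched for either motif.

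The members did not share a class at their promoters. Of the 10 members, 2 had a TSS inside an UP region, namely Hsp90aa1 and Hsph1. A DOWN region held a TSS of Hspa8 and Hspb1 (2 genes), and no region held the TSS of Hspa1a or Hspa1b (2 genes). The TSSs of Hsf1, Hsp90ab1, Dnajb1 and Bag3 that lay in regions were in unchanged regions alone. Of Hsp90aa1, the TSS of 1 transcript lay in the UP region and those of 5 in an unchanged region. Over all 12261 genes with a TSS in a region, 21.4% had at least 1 TSS in an UP region, 8.91% at least 1 in a DOWN region, and 70.1% had theirs in unchanged regions alone. The 8 members with a region thus divided into counts of 2, 2 and 4, and with so few genes these counts are a description and not a difference from the background. Hspa5, in contrast, had all 6 of its transcript TSSs in an UP region.

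**Figure D1:**
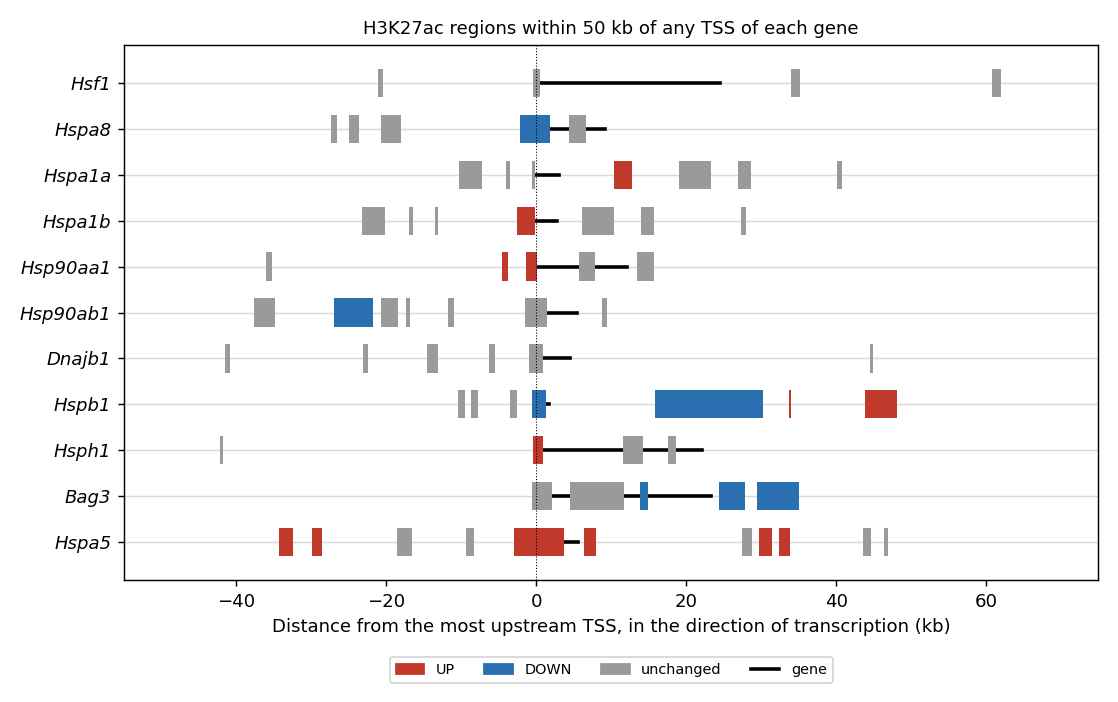
H3K27ac regions within 50 kb of any TSS of each of the 10 members and of Hspa5. The horizontal axis is the distance from the most upstream TSS in kb, with transcription to the right, colored bars are regions to scale by class, and the black line is the gene. Red UP regions lie at the most upstream TSS of Hsp90aa1, Hsph1 and Hspa5, and blue DOWN regions at that of Hspa8 and Hspb1.

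The transcription factor gene Hsf1 (chr15:76477422-76501913 on mm10, plus strand) had 1 unchanged region at its TSSs, of 874 bp, at chr15:76476988-76477861. It was the narrowest of the 9 regions that hold a member TSS, and 17.2% of all regions at a TSS were as narrow or narrower. It held 11 of the 16 transcript TSSs of Hsf1 and reached 434 bp upstream and 439 bp downstream of the most upstream TSS. It also held a TSS of Bop1, a ribosome biogenesis gene, and the acetylation of the 2 promoters cannot be told apart. No other region lay in the gene body. All 4 regions within 50 kb were unchanged. The nearest UP region was 96261 bp and the nearest DOWN region 115814 bp from an Hsf1 TSS.

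The constitutive cytosolic HSP70 gene Hspa8 (chr9:40800984-40810087, plus strand) and the stress-inducible genes Hspa1a and Hspa1b differed in whether a region held a TSS. Hspa8 had a DOWN region of 4005 bp at chr9:40798817-40802821, the widest of the 9, which held 9 of its 10 transcript TSSs. This region reached 2167 bp upstream and 1837 bp downstream of the most upstream TSS and covered 20.2% of the gene. Among DOWN regions at a TSS, 51.9% were as narrow or narrower, so its width was near the median of that class. An unchanged region of 2223 bp lay wholly in intronic sequence, 4366 to 6588 bp downstream of the most upstream TSS. The other 3 regions within 50 kb were unchanged and overlapped Clmp, an adhesion protein gene. No UP region lay within 50 kb, the nearest being 608273 bp away.

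Hspa1a (chr17:34969190-34972156, minus strand) and Hspa1b (chr17:34956436-34959238, minus strand), the heat-inducible HSP70 genes, each have 1 annotated transcript, and neither had a region at its TSS or in its gene body. An UP region of 2439 bp, at chr17:34959352-34961790, began 114 bp upstream of the Hspa1b TSS. The same region lay 10366 bp downstream of the Hspa1a TSS. At Hspa1a, an unchanged region of 439 bp, at chr17:34972337-34972775, began 181 bp upstream of the TSS and held the TSS of Hspa1l, the testis-enriched HSP70 gene on the other strand. Thus 137 of the 300 bases of the Hspa1b promoter window above lay in an UP region and 70 of the 300 bases of the Hspa1a window in an unchanged region. The 2 genes share all 7 regions within 50 kb, 1 UP and 6 unchanged, so their counts are not independent.

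The sequence of these genes bears on what 50-base reads can show. Of the 50-base words of the genome that begin in the gene body, 39.7% occurred at 1 place only for Hspa1a and 37.7% for Hspa1b, against 67.4% for Hspb1, 82.8% for Hsp90aa1, 83.1% for Hspa8 and between 96.6% and 99.6% for the other 5 members. Around the TSS, the farthest upstream word that was repeated began 203 bp upstream of the TSS in both genes. All 796 words between there and 1000 bp upstream occurred once in each. In the 2 kb around the TSS, 975 of 1952 words occurred once in each gene, so words nearer the TSS or inside the gene were not all repeated. The nearest regions, 114 bp (Hspa1b) and 181 bp (Hspa1a) upstream, thus began within these 203 bp, and no region reached from there into either gene. How reads with several places were handled is not given in the sources used here, and the part of repeated sequence in the absence of regions over these genes was not tested.

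**Figure D2:**
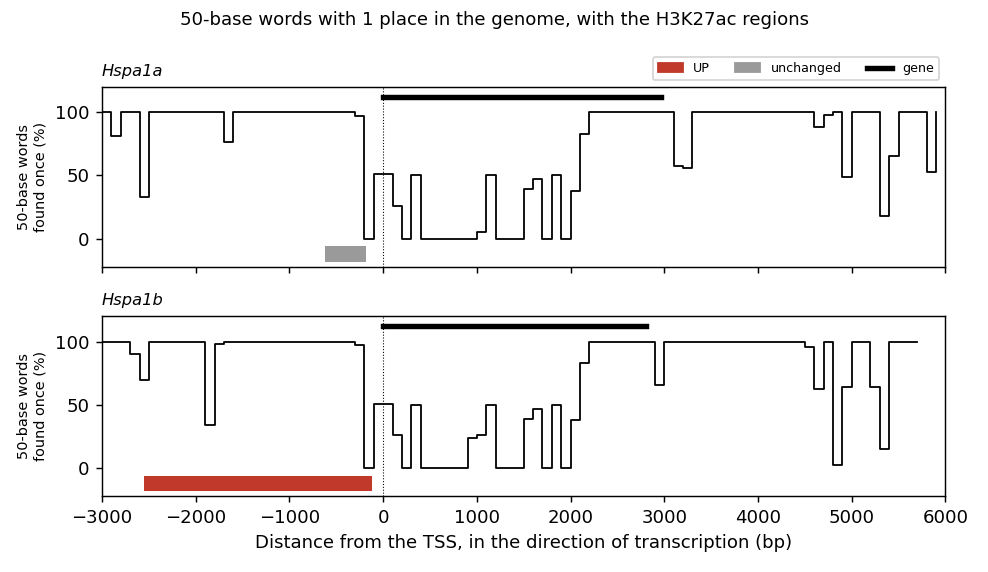
Share of 50-base words found at 1 place in the genome (vertical axis, percent, in steps of 100 bp) against the distance from the TSS of Hspa1a and Hspa1b (horizontal axis, bp, transcription to the right). Bars under each line are H3K27ac regions by class and the black bar is the gene. The share falls within 203 bp upstream of both TSSs, where the UP region of Hspa1b and the unchanged region of Hspa1a end.

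The HSP90 genes also differed. Hsp90aa1 (chr12:110690605-110702728, minus strand), which encodes the stress-inducible HSP90 isoform, was the only member with TSSs in regions of different classes. Its most upstream TSS, of 1 transcript, lay in an UP region of 1461 bp at chr12:110702595-110704055, of which 1327 bp were upstream of that TSS and 133 bp downstream. TSSs of 5 other transcripts lay in an unchanged region of 2195 bp at chr12:110694886-110697080, which began 5648 bp into the gene. A further UP region of 721 bp lay 3819 to 4539 bp upstream, with Hsp90aa1 as its nearest protein-coding gene. The other 2 regions within 50 kb were unchanged.

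Hsp90ab1 (chr17:45567775-45573271, minus strand), the constitutive isoform, had an unchanged region of 2876 bp at chr17:45571861-45574736 with 6 of its 8 transcript TSSs. It covered 25.7% of the gene. A DOWN region of 5240 bp lay 21729 to 26968 bp upstream and held a TSS of Slc29a1, a nucleoside transporter gene, which is thus the nearest gene to it. The other 5 regions within 50 kb were unchanged, and the nearest UP region was 115322 bp away.

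Among the 3 members that act as cofactors of HSP70, Hsph1 alone had a TSS in an UP region. Hsph1 (chr5:149614287-149636376, minus strand), an HSP110 protein that exchanges nucleotide on HSP70, had an UP region of 1359 bp at chr5:149635436-149636794, which held 8 of its 11 transcript TSSs and the heat shock elements printed above. It reached 418 bp upstream and 940 bp downstream of the most upstream TSS, and 25.1% of UP regions at a TSS were as narrow or narrower. Unchanged regions of 2644 bp and 1010 bp lay in the gene body, with 132 bp and 162 bp in exons of protein-coding transcripts and the rest in introns. No DOWN region lay within 50 kb.

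Dnajb1 (chr8:83608193-83612653, plus strand), the J-domain partner of the inducible HSP70, had an unchanged region of 1858 bp at chr8:83607225-83609082 with both of its transcript TSSs. The region also held a TSS of Tecr, a fatty acid elongation gene. All 6 regions within 50 kb were unchanged, and with Hsf1 this made 2 members with no changed region in that window.

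Bag3 (chr7:128523616-128546981, plus strand), an HSP70 cofactor of selective autophagy, had an unchanged region of 2687 bp at chr7:128523041-128525727, which held its 1 TSS. Regions of different classes followed along the gene. An unchanged region of 7206 bp lay in an intron, 4453 to 11658 bp from the TSS, and a DOWN region of 1145 bp, also intronic, 13812 to 14956 bp from it. Past the end of the gene, DOWN regions of 3448 bp and 5535 bp began 24383 bp and 29512 bp from the TSS, and Bag3 was the nearest protein-coding gene to both. All 3 DOWN regions were downstream of the TSS, and no UP region lay within 50 kb.

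Hspb1 (chr5:135887919-135889563, plus strand), a small heat shock protein that holds unfolded clients without ATP, had a DOWN region of 2001 bp at chr5:135887284-135889284. It held both transcript TSSs and covered 83.0% of the gene. Its neighborhood was the only one with both classes of change. A DOWN region of 14388 bp began 15886 bp downstream of the most upstream TSS, in the body of Ywhag, which encodes a 14-3-3 protein, with Hspb1 as the nearest protein-coding TSS. UP regions of 317 bp and 4303 bp lay farther downstream, and the wider of them held a TSS of Ywhag. The 3 unchanged regions, of 903 to 958 bp, were all upstream.

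The 9 regions at member TSSs were of 874 to 4005 bp, with a median of 2001 bp, against 1735 bp over all 10642 regions at a TSS. Over all UP regions at a TSS the median width was 2136 bp, whereas DOWN regions there had a median of 3828.5 bp and unchanged regions 1530 bp. Both UP regions of members were narrower than the median of their class, and so was the DOWN region of Hspb1. The UP region of Hspa5, at chr2:34768960-34775660, was 6701 bp wide, and 92.0% of UP regions at a TSS were as narrow or narrower. Since classes differ with width, members were also read against regions of like width. Of regions of 1 to under 2 kb at a TSS, 18.7% were UP and 4.12% DOWN; the 3 member regions in this range were UP at Hsp90aa1 and Hsph1 and unchanged at Dnajb1. Of regions of 2 to under 5 kb, 23.7% were UP and 11.8% DOWN, and the 5 member regions in this range were DOWN at Hspa8 and Hspb1 and unchanged at Hsp90aa1, Hsp90ab1 and Bag3.

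**Figure D3:**
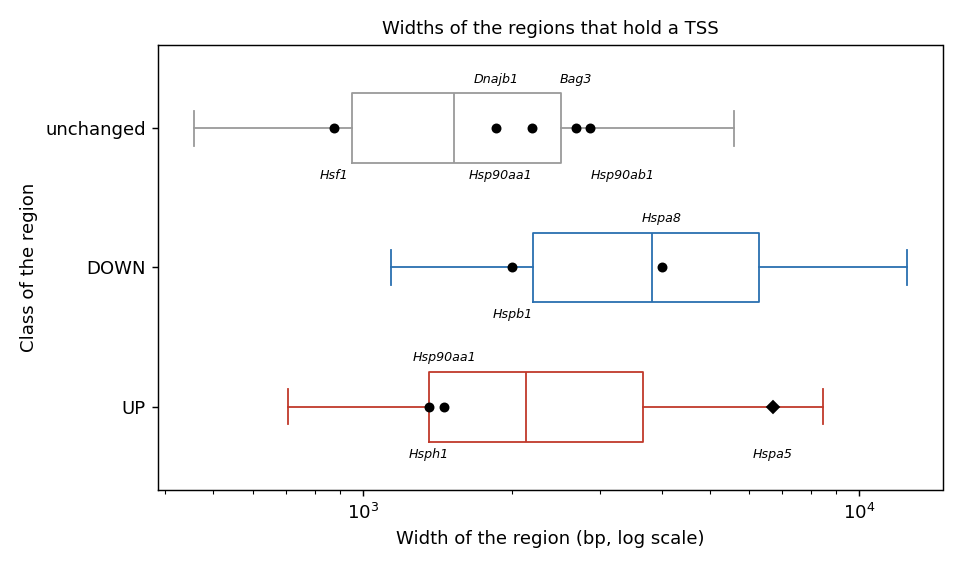
Widths of regions that hold a TSS (horizontal axis, bp, log scale) by class. Boxes give the median and quartiles of all such regions, whiskers the 5th and 95th percentiles, circles the 9 regions of the members and the diamond that of Hspa5. The UP regions of Hsph1 (1359 bp) and Hsp90aa1 (1461 bp) sit below the UP median of 2136 bp.

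Within gene bodies, 8 of the 10 members had 14 regions, of which 2 were UP, 3 DOWN and 9 unchanged. UP regions were in the body of 2 of these 8 members and DOWN regions of 3 (Hspa8, Hspb1 and Bag3). Over the 15263 genes with a region in the body, 28.1% had an UP and 14.9% a DOWN region there. Apart from the regions at TSSs, the body regions were those of Hspa8, Hsph1 and Bag3 given above.

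Within 50 kb of the member TSSs lay 50 regions, 6 UP, 7 DOWN and 37 unchanged. At least 1 UP region lay within 50 kb of 5 members and at least 1 DOWN region within 50 kb of 4. Of the 32683 genes with a region in that window, 42.6% and 26.2% had such regions. The 5 include both Hspa1a and Hspa1b, which share 1 UP region. Members had 4 to 7 regions in the window, whereas the median over those genes was 3, so the shares are not a matched background. By width, DOWN regions held 35762 bp, UP regions 10600 bp and unchanged regions 59339 bp. DOWN regions thus made up 14.0% of regions and 33.8% of base pairs, beside 10.5% and 18.0% over all regions of the series, where their share was also larger by width. UP regions made up 12.0% of regions, beside 17.1% over all regions of the series. By width, UP regions held 10600 of 105701 bp near the members, beside 21.2% of base pairs over all regions. All these series shares cover regions at any distance from a TSS, so they are not a matched background for regions within 50 kb. The DOWN region in Ywhag near Hspb1 alone held 14388 bp. Changed regions took 88.4% of the base pairs near Hspb1 and 50.6% near Bag3, 36.0% near Hspa8 and 34.8% near Hsp90ab1, 30.1% or less near Hsp90aa1, Hsph1, Hspa1a and Hspa1b, and none near Hsf1 and Dnajb1. Near Hspa5, 6 of 11 regions were UP, with 14685 bp of 20630 bp, and none was DOWN. Of these UP regions, only those of 6701 bp and 1588 bp had Hspa5 as the nearest protein-coding gene, and the others had Gapvd1 or Rabepk.

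**Figure D4:**
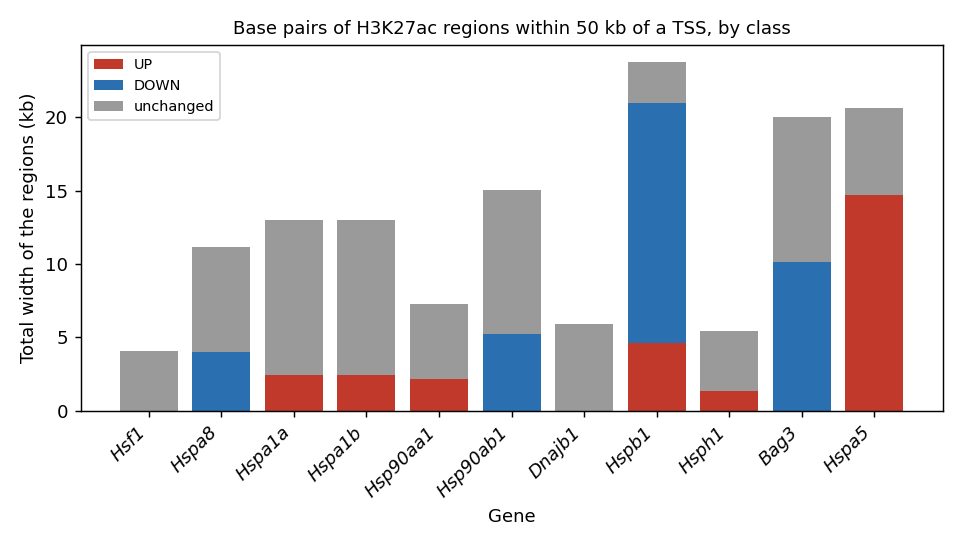
Total width of the H3K27ac regions within 50 kb of any TSS of each gene (vertical axis, kb, from 0) divided by class. Hspb1 and Bag3 have the most DOWN base pairs, 16389 bp and 10128 bp, and Hspa5 the most UP base pairs, 14685 bp. The bars of Hspa1a and Hspa1b hold the same regions.

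A wider list of 81 heat shock pathway genes, the members included, was read the same way. Of these, 70 had a TSS in a region. UP regions held a TSS of 16 genes (22.9%) and DOWN regions that of 5 (7.14%), beside the 21.4% and 8.91% over all genes. Without the members the counts were 14 UP and 3 DOWN of 62. The counts by role, here and below, cover few genes each and are a description. Of the 15 HSP90 co-chaperones, 14 had TSSs in unchanged regions alone, beside 70.1% over all genes with a TSS in a region. The exception was Fkbp5, a glucocorticoid-induced immunophilin gene, with DOWN regions of 1636 bp and 2279 bp and an unchanged region. Among HSF factors and regulators, the factor gene Hsf2 had an UP region of 8463 bp and an unchanged region, and Hsbp1, which encodes a protein that binds HSF1, an UP region of 542 bp.

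Other HSP70 family members differed from Hspa8. Hspa4l, an HSP110 gene, had an UP region of 2150 bp, and 4 genes of the family, Hspa1l among them, had unchanged regions alone. Among the 11 J-domain genes, Dnaja2 (4029 bp) and Dnajc2 (4263 bp) had UP regions, Dnajc5, which encodes a synaptic vesicle chaperone, a DOWN region of 11712 bp, and Dnajb4 a DOWN region of 6155 bp and an unchanged region. The region of Dnajc2 also held a TSS of the proteasome gene Psmc2. Bag1 (2139 bp, shared with Chmp5) and Hspbp1 (576 bp), both cofactors of HSP70, had UP regions, as did the chaperonin subunits Cct3 (2591 bp, shared with Tsacc) and Cct7 (2124 bp, shared with Pradc1), whereas the other 6 TRiC genes had unchanged regions alone. Of 8 small heat shock protein genes, 3 had a TSS in a region, of which Hspb1 alone was in a DOWN region.

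The mitochondrial chaperones were counted for comparison. Of 7, 4 had a TSS in an UP region (57.1%, beside 21.4% over all genes), but Hspd1 and Hspe1, which form the mitochondrial chaperonin and its lid, shared 1 region of 6443 bp. Hspa9 had an UP region of 3941 bp, and Dnaja3 had UP regions of 5107 bp, shared with Vasn, and 4554 bp. Sqstm1, an autophagy receptor gene, had an UP region of 17527 bp shared with Mgat4b. Without the mitochondrial chaperones, 12 of 63 list genes with a region had a TSS in an UP region (19.0%) and 5 in a DOWN region (7.94%), near the 21.4% and 8.91% over all genes.

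**Figure D5:**
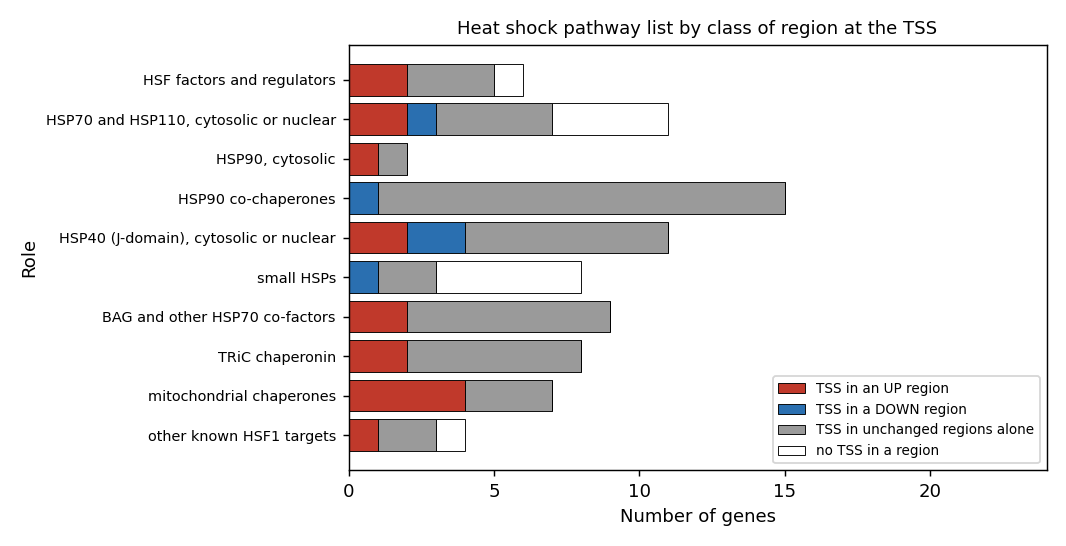
Number of genes of the heat shock pathway list (horizontal axis) by role (vertical axis), divided by the class of the regions that hold a TSS. A gene with a TSS in an UP or DOWN region is drawn in that class even where another TSS is in an unchanged region. Of the 15 HSP90 co-chaperones 14 are drawn as unchanged, and of the 7 mitochondrial chaperones 4 as UP. The shares over all genes with a TSS in a region were 70.1% in unchanged regions alone and 21.4% UP.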

How the data were processed

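H3K27ac ChIP-seq libraries (3 per treatment) and inputs (1 per treatment) from MPH were grouped by the treatment in their labels. Per the labels, the authors used Bowtie, MACS2 and mm10. Their methods and code describe duplicates and blacklisted regions removed, reads extended to 200 bp and counted in 150 bp bins, bins filtered against input, loess normalization, a paired quasi-likelihood test in csaw, and bins combined over broad MACS2 peaks called on pooled libraries. Regions past a false discovery rate of 0.05 were UP where the ratio of up to down bins was at least 2, DOWN where it was at most 0.5, and otherwise discarded, so a gene with no region here may have had a discarded one. The deposited lists hold start and end positions in bp, with no counts.

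Here, starts were made 1-based and 1 bp of overlap sufficed. TSSs were those of 141730 transcripts of GENCODE M21 (chromosomes 1 to 19, X and Y), not the release used by the authors. A gene counted in each class that held a TSS. Promoter sequences were from RefSeq on GRCm38.p6. Words of 50 bases were counted on both strands of that assembly. The genes named were the members, Hspa5, list genes with a TSS in a changed region, and neighbors of member regions, beside the cell type markers. Some genes of the wider list enter its counts and are not reported by name here. The members and lists were chosen with earlier results of these data known. The assignment, word and motif steps were tested on simulated data (Python 3.11.15, numpy 2.4.6, pandas 2.3.3). Alternatives to the TSS rule, the windows, the widths and the motif are in the closing section.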

Additional observations from a re-analysis of the deposited data

How the results depend on the processing

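No paired analysis was possible because the lists hold 1 call per region over all libraries, and for the same reason no library could be left out. Depth could not be examined. Of 63 alternative values, 49 stayed within 1.5 times the reported one. With regions within 1 kb of a TSS counted, 8 members had an unchanged region, as Hspa1a, Hspa8 and Hsph1 gained one, and 0 had none, as Hspa1b gained an UP region. With 500 bp required on each side of the TSS, 1 member had an UP region, as Hsp90aa1 lost its own. The pathway list then had 35 genes with an unchanged region and 32 with none. The list had 20 genes with none by the most upstream TSS and 24 with regions of at least 1 kb. With at least 50% of the region required to lie in the gene, 1 body region was UP. Within 10 kb of the TSSs lay 2 DOWN and 19 unchanged regions, and within 100 kb 11 UP and 12 DOWN. DOWN regions held 33.8% of base pairs within 50 kb. With 1 mismatch allowed, 4 members had a heat shock element.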
